A study of Mus musculus with 6 samples.

Results

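Potassium channel genes are described here as the genes whose symbol is Kcn followed by letters and a number and whose reads over the 6 libraries sum to 60 or more. Of 21286 genes in the table, 89 carried such a symbol and 68 reached that sum, so 21 were left out for few reads. The letters after Kcn give the subfamily. The samples were lateral ganglionic eminence (LGE), the embryonic swelling of the ventral forebrain that forms striatal neurons and olfactory bulb interneurons, dissected at embryonic day 16.5. There were 3 libraries of total RNA from wild type littermates and 3 from Dlx1/2 -/- mutants, which are homozygous for loss of the homeodomain transcription factors Dlx1 and Dlx2. All mice were on a mixed background of C57BL/6J, 129S6 and CD1, and no drug or other treatment is named. The labels do not say whether each library came from its own embryo or litter, so the p-values measure only the spread between these libraries.

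Potassium channels let potassium leave the cell, which sets the resting potential and ends action potentials. Most are tetramers of pore-forming alpha subunits, some of which open with voltage and others with calcium, sodium, G proteins or membrane stretch. Modifier alpha subunits form no channel alone and change the gating of Kcnb channels, and auxiliary subunits alter how alpha subunits open and where they are placed. In the developing forebrain these channels shape the excitability of migrating and maturing neurons, and some serve potassium uptake in glia.

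The 6 libraries held between 10711630 and 16588359 counted reads, with the lowest total in wild type replicate 1. Dlx2 measured 470.7, 418.8 and 419.4 CPM (read counts scaled to the library total) in wild type and 16.15, 15.5 and 18.68 CPM in the mutant, so the labels and this gene agree. Dlx1 measured between 831.4 and 898.4 CPM in wild type and between 109.3 and 137.6 CPM in the mutant. Of 14 markers of the LGE and striatal lineage, 11 were lower and 1 was higher in the mutant by edgeR, and their summed level was 3768.2 to 3994.5 CPM in wild type and 1561.0 to 1763.7 CPM in the mutant. Markers of hypothalamic and midbrain neurons summed to 3.4 to 5.1 CPM in wild type and 486.8 to 553.7 CPM in the mutant (7 of 8 tested higher, none lower), and those of pallial glutamatergic neurons to 28.2 to 82.5 and 132.2 to 197.1 CPM (5 of 7 higher, none lower). Markers of the medial ganglionic eminence summed to 685.9 to 858.3 and 941.1 to 1050.4 CPM (4 of 10 higher, 3 lower), those of radial glia to 2293.7 to 2579.1 and 3361.8 to 3395.6 CPM (5 of 10 higher, none lower), and those of all neurons to 6122.5 to 6928.4 and 5495.1 to 5728.0 CPM (4 of 12 higher, 4 lower). Most of the hypothalamic and midbrain sum in the mutant was Otp, at 445.8 CPM. Of the medial ganglionic eminence markers, Sst rose from 17.2 to 222.7 CPM and Npy from 23.9 to 102.5 CPM. Erbb4 fell from 173.8 to 49.3 CPM and Maf from 63.0 to 14.9 CPM, so that sum does not stand for all its markers. In bulk tissue, fewer cells of a type and less RNA per cell cannot be told apart. The part of these marker shifts in the channel results was not tested.

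The mutant LGE held 24 potassium channel genes at an altered level, 10 higher and 14 lower than in wild type, and 44 did not pass the test (edgeR's quasi-likelihood test, adjusted p below 0.05 over 15326 genes). The called share was 35.3% of the members beside 24.0% of all genes tested. The higher members were 14.7% beside 11.2% of all genes, and the lower members 20.6% beside 12.8%. A change of at least 2-fold was called for 12 members, or 17.6%, beside 6.88% of all genes. Of these 12, 4 were higher, beside 2.84% of all genes, and 8 were lower, beside 4.04%. No test was made of these shares. The 3 mutant libraries lay entirely above or below the 3 wild type libraries for 32 members, or 47.1%, beside 41.9% of all genes. The median log2 fold change was −0.15 over the members and 0.00 over all genes, and the median size of the change, in either direction, was 0.45 and 0.19. Each of the 8 classes of coding genes held members on both sides of zero when uncalled members were counted. Called members went both ways in the modifier, ether-a-go-go, calcium- or sodium-activated and auxiliary classes. They were only lower in the shaker-related and KCNQ classes, and only higher in the inward rectifier and tandem-pore-domain classes.

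**Figure D1:**
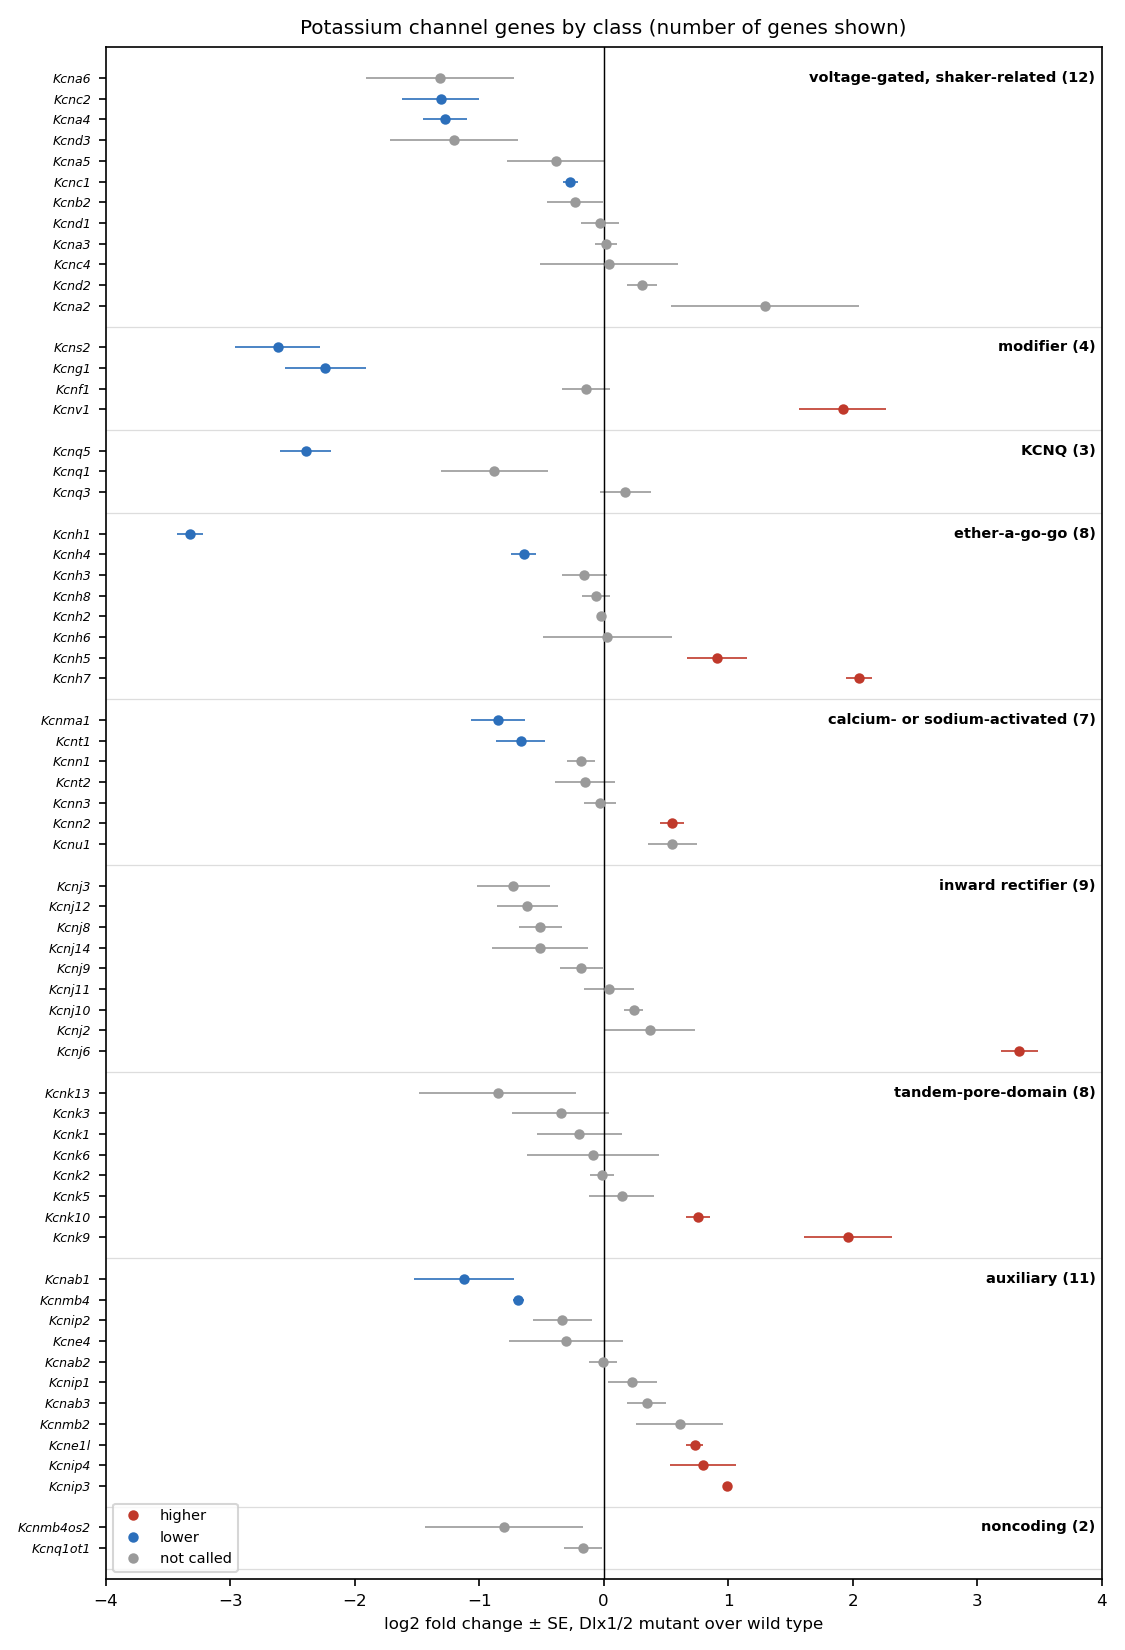
The log2 fold change of the mutant over wild type (horizontal axis) is plotted for 64 of the 68 genes, grouped by channel class, with bars of ± 1 SE from 3 libraries a group. Red and blue points passed edgeR's test at adjusted p 0.05, and the widest gap within a class is between Kcnh1 at −3.32 and Kcnh7 at 2.05.

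The ether-a-go-go channels, subfamily Kcnh, held the largest fall and the second largest rise among all members. Kcnh1, the founding eag channel, and Kcnh7, an erg-type channel, are both voltage-gated. The letters upstream of these 2 genes are shown because the genes lie in 1 subfamily and moved in opposite directions. Each run is the 250 bases before the gene's start in the RefSeq annotation of GRCm38.p6, read 5′ to 3′ along the gene's strand, with CG pairs in capitals. Kcnh1 (ENSMUSG00000058248) spans positions 192190774 to 192510159 of chromosome 1 on the plus strand, and its run is chr1:192190527-192190776. Kcnh7 (ENSMUSG00000059742) spans positions 62693414 to 63184287 of chromosome 2 on the minus strand, and its run is chr2:63184288-63184537.
Kcnh1: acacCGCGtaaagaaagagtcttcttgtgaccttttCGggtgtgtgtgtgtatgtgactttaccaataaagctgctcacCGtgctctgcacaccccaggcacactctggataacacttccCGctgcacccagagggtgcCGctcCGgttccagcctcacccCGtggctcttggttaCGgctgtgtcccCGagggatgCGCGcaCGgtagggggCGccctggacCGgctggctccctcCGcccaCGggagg
Kcnh7: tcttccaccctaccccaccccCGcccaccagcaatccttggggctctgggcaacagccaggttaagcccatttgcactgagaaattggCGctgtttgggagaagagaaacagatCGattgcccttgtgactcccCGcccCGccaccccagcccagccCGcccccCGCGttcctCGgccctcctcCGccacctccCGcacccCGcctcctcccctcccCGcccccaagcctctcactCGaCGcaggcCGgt
The Kcnh1 run holds 17 CG pairs and 62.0% G or C, and the Kcnh7 run 16 CG pairs and 67.6% G or C, so these counts are close for genes that moved apart.

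Kcnh1 measured 26.8, 27.3 and 25.4 CPM in wild type and 2.44, 2.47 and 3.02 CPM in the mutant. Every mutant library was far below every wild type library, and the gene fell by 3.32 ± 0.104 on the log2 scale (SE, n = 3 per group, adjusted p = 1.16e-06). Kcnh7 measured 33.9, 29.6 and 33.2 CPM in wild type and 148.2, 130.7 and 120.7 CPM in the mutant. The lowest mutant library was several times the highest wild type library, and the gene rose 4.14-fold (log2 2.05 ± 0.106, adjusted p = 4.36e-06). On the Kcnh7 exons, 4.6% overlap those of Gca on the opposite strand. Kcnh4, an elk-type channel and the member of this class with the highest wild type level per length, measured 62.0, 68.9 and 61.4 CPM in wild type and 37.2, 40.3 and 45.7 CPM in the mutant. Its groups did not overlap, and it fell by 0.64 ± 0.102 on the log2 scale (adjusted p = 0.00166). Kcnh5, the closest relative of Kcnh1, measured 2.39, 2.40 and 1.69 CPM in wild type and 4.63, 4.30 and 3.145 CPM in the mutant. It rose by 0.91 ± 0.239 on the log2 scale with adjusted p = 0.0258, and this call was lost without wild type replicate 2 (adjusted p = 0.0505) or 3 (0.0825) and without mutant replicate 1 (0.0877) or 2 (0.0803). The other 4 members were not called. Kcnh2, the heart and brain erg channel, was 40.3 ± 1.005 CPM in wild type and 39.7 ± 0.691 CPM in the mutant (SD, n = 3), Kcnh8 was 14.8 ± 1.57 and 14.2 ± 1.04 CPM, and Kcnh3 and Kcnh6 were below 2 CPM in every library.

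**Figure D2:**
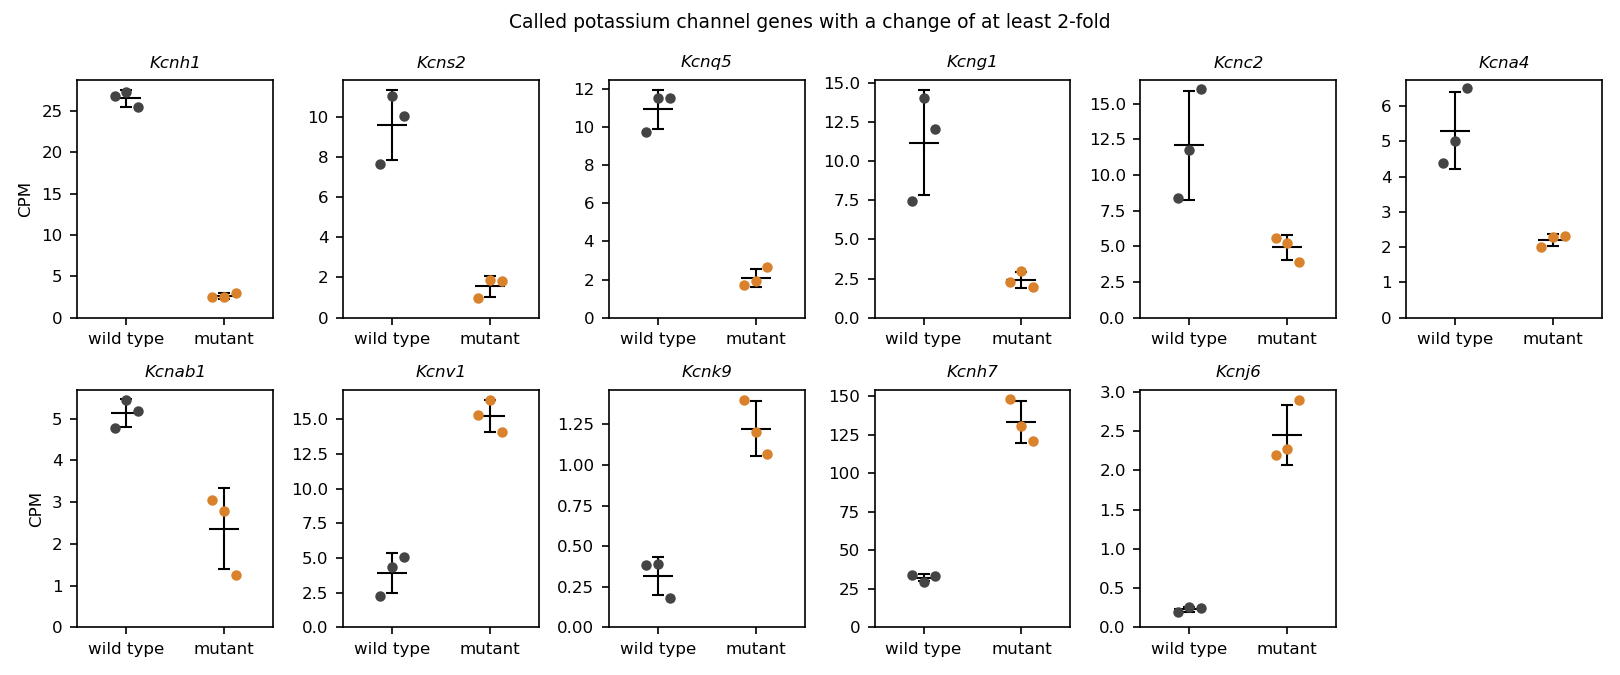
CPM (vertical axis, from 0) in each of the 3 wild type (grey) and 3 mutant (orange) libraries is plotted for 11 of the 12 called genes with a change of at least 2-fold, with the mean and ± 1 SD. The groups are separate in all 11 panels.

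The modifier subunits moved in both directions. Kcns2 and Kcng1, which are silent alone and join Kcnb subunits, were lower, and Kcnv1, another silent partner of Kcnb subunits, was higher. Kcns2 measured 7.65, 11.04 and 10.02 CPM in wild type and 0.975, 1.898 and 1.82 CPM in the mutant, without overlap, and fell 6.14-fold (by 2.62 ± 0.342 on the log2 scale, adjusted p = 0.000224). Kcng1 measured 7.46, 14.03 and 12.1 CPM in wild type and 2.255, 2.97 and 1.95 CPM in the mutant. Its lowest wild type library was replicate 1, still above all mutant libraries, and it fell 4.71-fold (by 2.24 ± 0.325 on the log2 scale, adjusted p = 0.000672). Kcnv1 measured 2.30, 4.35 and 5.07 CPM in wild type and 15.3, 16.4 and 14.1 CPM in the mutant. Wild type replicate 1 was again the lowest, the groups did not overlap, and the gene rose 3.79-fold (log2 1.92 ± 0.349, adjusted p = 0.000595). Kcnf1 was not called, with 6.97 ± 0.777 CPM in wild type and 6.32 ± 1.24 CPM in the mutant (SD, n = 3).

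None of the 14 shaker-related voltage-gated subunits (Kcna, Kcnb, Kcnc and Kcnd) was called higher, and those called lower included Kcnc2, Kcna4 and Kcnc1. Kcnc2, a fast channel known from fast-spiking interneurons, measured 8.42, 11.8 and 16.05 CPM in wild type and 5.61, 5.25 and 3.90 CPM in the mutant. The groups did not overlap, and it fell 2.48-fold (by 1.31 ± 0.312 on the log2 scale, adjusted p = 0.00669). Kcna4, which carries a rapidly inactivating current, measured 4.40, 5.003 and 6.52 CPM in wild type and 2.01, 2.28 and 2.33 CPM in the mutant. It fell 2.42-fold, again without overlap (by 1.28 ± 0.177 on the log2 scale, adjusted p = 0.00285).

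The fall of Kcnc1 was small. Kcnc1, like Kcnc2 a channel of fast-spiking neurons, had the highest wild type level per length of the class and measured 85.3, 81.2 and 92.0 CPM in wild type and 74.55, 70.9 and 69.4 CPM in the mutant. It fell by 0.27 ± 0.0606 on the log2 scale (adjusted p = 0.0219), and the call was lost without wild type replicate 3 (adjusted p = 0.0678) and without mutant replicate 2 (0.0732) or 3 (0.0681). Among the uncalled, Kcnd2, an A-type channel of dendrites, measured 31.7, 35.8 and 37.7 CPM in wild type and 49.2, 40.3 and 40.95 CPM in the mutant (log2 0.31 ± 0.118, adjusted p = 0.066). Its 3 mutant libraries were above all wild type libraries, but the difference did not pass the test. Kcna3, the highest Kcna per length, measured 9.57, 11.6 and 11.1 CPM in wild type and 11.15, 10.8 and 10.9 CPM in the mutant, with overlapping groups (log2 0.02 ± 0.0854, adjusted p = 0.926). Kcna5, Kcnb2, Kcnc4 and Kcnd1 were not called either and their groups overlapped. Kcna2, Kcna6 and Kcnd3 were uneven among the wild type libraries and are given further on.

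Among the KCNQ subunits, which carry the M current that slows repetitive firing of neurons, Kcnq5 fell. Kcnq5 measured 9.76, 11.5 and 11.5 CPM in wild type and 1.71, 1.898 and 2.64 CPM in the mutant. All mutant libraries were below all wild type libraries, and it fell 5.25-fold (by 2.39 ± 0.203 on the log2 scale, adjusted p = 6.1e-05). Kcnq3, which pairs with other KCNQ subunits, was 57.2 ± 12 CPM in wild type and 64.8 ± 6.77 CPM in the mutant (adjusted p = 0.451). Kcnq1, known from heart and inner ear, was 1.38 ± 0.567 and 0.728 ± 0.138 CPM (adjusted p = 0.144), and it passed the test only without wild type replicate 3 (a fall of 1.22 on the log2 scale, adjusted p = 0.03).

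Of the 7 channels gated by calcium, sodium or pH, Kcnma1 and Kcnt1 fell and Kcnn2 rose. Kcnma1, the large-conductance calcium-activated channel, measured 12.4, 14.2 and 18.8 CPM in wild type and 7.92, 9.997 and 7.42 CPM in the mutant, without overlap, and fell by 0.85 ± 0.217 on the log2 scale (adjusted p = 0.0116). Kcnmb4, the neuronal beta subunit that binds the Kcnma1 channel, measured 21.5, 20.6 and 22.0 CPM in wild type and 12.9, 13.2 and 13.8 CPM in the mutant. The libraries of each group were close together, and Kcnmb4 fell by 0.69 ± 0.0421 on the log2 scale (adjusted p = 0.000719). Its exons are overlapped by 2 antisense genes, Kcnmb4os2 over 20.8% and Kcnmb4os1 over 10.7% of their length, and without a stated strand setting their reads cannot be told apart. Kcnt1, a sodium-activated channel, measured 26.1, 37.5 and 34.8 CPM in wild type and 24.1, 19.3 and 18.7 CPM in the mutant. Wild type replicate 1 and mutant replicate 1 were close, and the fall was 0.67 ± 0.195 on the log2 scale (adjusted p = 0.0159). That call was lost without wild type replicate 2 (adjusted p = 0.0578) and without mutant replicate 2 (0.0595) or 3 (0.0586).

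The small-conductance calcium-activated subunits, which hyperpolarise neurons after calcium entry, did not move together. Kcnn2 measured 36.45, 36.6 and 31.2 CPM in wild type and 54.25, 51.1 and 46.7 CPM in the mutant. All mutant libraries were higher, and it rose by 0.55 ± 0.0981 on the log2 scale (adjusted p = 0.00354). Kcnn1, the member of this class with the highest level per length in wild type, measured 66.7, 58.0 and 56.1 CPM there and 53.0, 58.15 and 48.0 CPM in the mutant, with overlapping groups (log2 −0.18 ± 0.111, adjusted p = 0.214). Kcnn3 was 22.2 ± 1.96 and 21.7 ± 2.66 CPM (adjusted p = 0.870). Kcnt2 and Kcnu1 measured below 5 CPM in every library and were not called.

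Of the 9 inward rectifiers, subfamily Kcnj, only Kcnj6 was called. Kcnj6, a G protein-gated subunit known from dopamine neurons and cerebellum, measured 0.191, 0.260 and 0.241 CPM in wild type and 2.19, 2.28 and 2.89 CPM in the mutant. The wild type level rests on 10 reads over the 3 libraries against 118 in the mutant, with no overlap, and the fitted rise was 10.1-fold (log2 3.34 ± 0.150, adjusted p = 0.000141). Its partner subunits were not called. Kcnj3 measured 2.20, 2.21 and 1.81 CPM in wild type and 1.585, 0.823 and 1.32 CPM in the mutant (adjusted p = 0.0986), and Kcnj9 was 5.50 ± 0.934 and 4.90 ± 0.577 CPM (adjusted p = 0.512). On the Kcnj3 exons, 31.1% overlap those of Gm26794 on the other strand.

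Kcnj10, the potassium uptake channel of glia and the highest inward rectifier per length, measured 53.2, 49.5 and 55.6 CPM in wild type and 67.1, 61.1 and 58.9 CPM in the mutant. All mutant libraries were above wild type, but the difference of 0.24 ± 0.0744 on the log2 scale did not pass the test (adjusted p = 0.0536). Astrocyte markers summed to 290.6 to 307.9 CPM in wild type and 314.5 to 382.2 CPM in the mutant, with 2 of 6 tested higher and none lower. The called markers were Aldoc and Slc1a2. Aldoc was at 104.8 CPM in wild type and 128.5 CPM in the mutant, and Slc1a2, whose groups overlapped, at 47.5 and 76.45 CPM. Both calls were lost without mutant replicate 1 and without mutant replicate 2. Aqp4, Gja1 and Gfap were not called, at 7.17, 32.7 and 0.570 CPM in wild type and 6.51, 36.9 and 1.53 CPM in the mutant. The part of the astrocyte markers in the Kcnj10 level was not tested. Kcnj8, the pore of the vascular channel closed by ATP, measured 7.27, 9.55 and 8.93 CPM in wild type and 6.83, 5.06 and 6.29 CPM in the mutant (adjusted p = 0.0553). It passed the test without wild type replicate 1 (a fall of 0.61 on the log2 scale, adjusted p = 0.0324). Abcc9, the receptor subunit that joins Kcnj8, fell from 24.3 ± 1.97 to 19.6 ± 0.635 CPM (adjusted p = 0.0353). That call was lost with DESeq2 (adjusted p = 0.0587), without wild type replicate 2 (0.0899) or 3 (0.0965) and without mutant replicate 1 (0.0959), 2 (0.0757) or 3 (0.102). Pericytes express both. Of the 9 pericyte markers, 2 were called higher and 1, Abcc9 itself, was called lower. The 6 uncalled markers had negative log2 differences, and the list median was −0.19. Notch3 (98.9 CPM in wild type and 150.5 CPM in the mutant) and Pdgfrb (63.8 and 89.6 CPM) were higher, and with these 2 included the list summed to 270.9 to 282.3 CPM in wild type and 329.3 to 346.7 CPM in the mutant. The part of these markers in the Kcnj8 level was not tested. Endothelial markers summed to 188.0 to 201.9 and 168.7 to 172.7 CPM (none of 8 higher, 2 lower). The other Kcnj members, Kcnj2, Kcnj11, Kcnj12 and Kcnj14, measured 5.07 CPM or less in every library and were not called.

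Of the 8 tandem-pore-domain channels, subfamily Kcnk, which carry leak current at rest, 2 were called higher and none was called lower. Kcnk10, a stretch- and lipid-sensitive channel, measured 34.0, 35.4 and 31.1 CPM in wild type and 53.2, 62.6 and 53.8 CPM in the mutant. The groups were well apart, and it rose 1.69-fold (log2 0.76 ± 0.0939, adjusted p = 0.000596). Kcnk2, its closest relative, was 42.9 ± 3.10 CPM in wild type and 42.6 ± 3.76 CPM in the mutant (SD, n = 3, log2 −0.01 ± 0.0951, adjusted p = 0.943). Kcnk9, an acid-sensitive leak channel, measured 0.383, 0.390 and 0.181 CPM in wild type and 1.40, 1.20 and 1.07 CPM in the mutant. Its wild type level rests on 13 reads and its mutant level on 59, without overlap, and the fitted log2 rise was 1.96 ± 0.355 (adjusted p = 0.00534). Kcnk3, the closest relative of Kcnk9, was 3.05 ± 1.08 and 2.41 ± 0.659 CPM (adjusted p = 0.487). Kcnk1 measured 6.03, 10.5 and 4.65 CPM in wild type and 6.34, 6.07 and 6.10 CPM in the mutant, with overlap, and Kcnk5, Kcnk6 and Kcnk13 were below 4 CPM throughout.

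The auxiliary subunits held 3 rises and 2 falls among 11 members. Kcnip3, a calcium-binding subunit of Kcnd channels that also binds DNA, measured 19.4, 18.9 and 19.4 CPM in wild type and 37.6, 38.1 and 38.9 CPM in the mutant. It had the smallest SE of the 24 called members, and it rose 1.99-fold (log2 0.99 ± 0.0197, adjusted p = 3.44e-05). Kcnip4, of the same family, measured 3.16, 1.95 and 2.47 CPM in wild type and 3.60, 5.38 and 4.025 CPM in the mutant (log2 0.80 ± 0.264, adjusted p = 0.048). Its call held without wild type replicate 1 but was lost without wild type replicate 2 (adjusted p = 0.145) or 3 (0.115) and without mutant replicate 1 (0.0561), 2 (0.153) or 3 (0.0854), with DESeq2 (0.0575) and with no filter on low counts (0.0517). Kcnip1 and Kcnip2 were not called, at 9.19 ± 1.76 and 4.02 ± 1.02 CPM in wild type and 10.9 ± 1.49 and 3.24 ± 0.311 CPM in the mutant.

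Kcne1l, a small membrane subunit of the Kcne family, measured 21.9, 23.8 and 24.1 CPM in wild type and 41.5, 36.5 and 38.1 CPM in the mutant. The groups did not overlap, and it rose 1.66-fold (log2 0.73 ± 0.0689, adjusted p = 0.000456). Kcnab1, a cytoplasmic beta subunit that speeds inactivation of Kcna channels, measured 4.78, 5.46 and 5.19 CPM in wild type and 3.05, 2.78 and 1.26 CPM in the mutant. It fell 2.18-fold (by 1.12 ± 0.402 on the log2 scale, adjusted p = 0.0267), and the call was lost without wild type replicate 2 (adjusted p = 0.0781) or 3 (0.0675). Kcnab3, the beta subunit with the highest level per length, measured 9.57, 8.38 and 7.12 CPM in wild type and 9.27, 10.8 and 11.6 CPM in the mutant, with overlap (log2 0.35 ± 0.157, adjusted p = 0.127). Kcnab2 was 22.5 ± 2.72 CPM in wild type and 22.5 ± 1.18 CPM in the mutant. Kcne4 and Kcnmb2 were not called. The 2 noncoding members, Kcnq1ot1, an antisense transcript of the imprinted Kcnq1 region, and Kcnmb4os2, were not called either, at 11.6 ± 1.85 and 2.67 ± 1.14 CPM in wild type and 10.4 ± 1.02 and 1.55 ± 0.798 CPM in the mutant.

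Levels per length, as the deposited FPKM (fragments scaled for transcript length and library size), show which genes made up most of the channel RNA. Summed over all 68 members the level was 182 ± 5.18 FPKM in wild type and 198 ± 5.83 FPKM in the mutant (SD, n = 3). The 55 pore-forming and modifier members summed to 149 ± 3.91 and 151 ± 5.03 FPKM, although 7 of them rose and 12 fell. The auxiliary members summed to 30.9, 33.0 and 33.2 FPKM in wild type and 47.8, 45.3 and 46.0 FPKM in the mutant, with no overlap between groups. Among these, Kcne1l went from 14.9 to 25.3 FPKM and Kcnip3 from 4.68 to 9.44 FPKM, while 2 of the 11 were called lower and 6 were not called. The tandem-pore-domain members summed to 23.1 ± 2.26 and 32.8 ± 2.37 FPKM, also without overlap. Kcnk10 alone went from 13.1 to 22.5 FPKM, and 6 of the 8 were not called. The shaker-related members summed to 40.2 ± 2.00 and 36.8 ± 2.47 FPKM, and the ether-a-go-go to 27.6 ± 0.629 and 26.3 ± 0.331. The inward rectifiers summed to 16.2 ± 0.918 and 17.8 ± 1.28 FPKM, the calcium- or sodium-activated to 23.3 ± 0.595 and 21.9 ± 1.89, and the modifiers to 6.09 ± 1.23 and 5.46 ± 0.620. These sums were not tested.

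The highest single members in wild type were Kcne1l at 14.9 ± 0.946 FPKM, Kcnn1 at 14.7 ± 1.18, Kcnk10 at 13.1 ± 0.847 and Kcnh4 at 12.4 ± 0.887. The ranges of ± 1 SD of neighbours in this order overlapped. In the mutant Kcne1l was at 25.3 ± 1.76 FPKM and Kcnk10 at 22.5 ± 2.12, ahead of Kcnn1 at 13.2 ± 1.31 and Kcnj10 at 11.6 ± 0.863. Within the Kcnh class the order changed. Kcnh4 (12.4 FPKM), Kcnh2 (6.30), Kcnh1 (3.32) and Kcnh7 (1.75) stood in that order in wild type, whereas in the mutant Kcnh4 (8.09 ± 0.799) and Kcnh7 (7.36 ± 0.815) were within their spread of each other and Kcnh1 was at 0.337 ± 0.0395 FPKM. No source states the transcript length behind each FPKM, so levels of different genes are approximate.

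**Figure D3:**
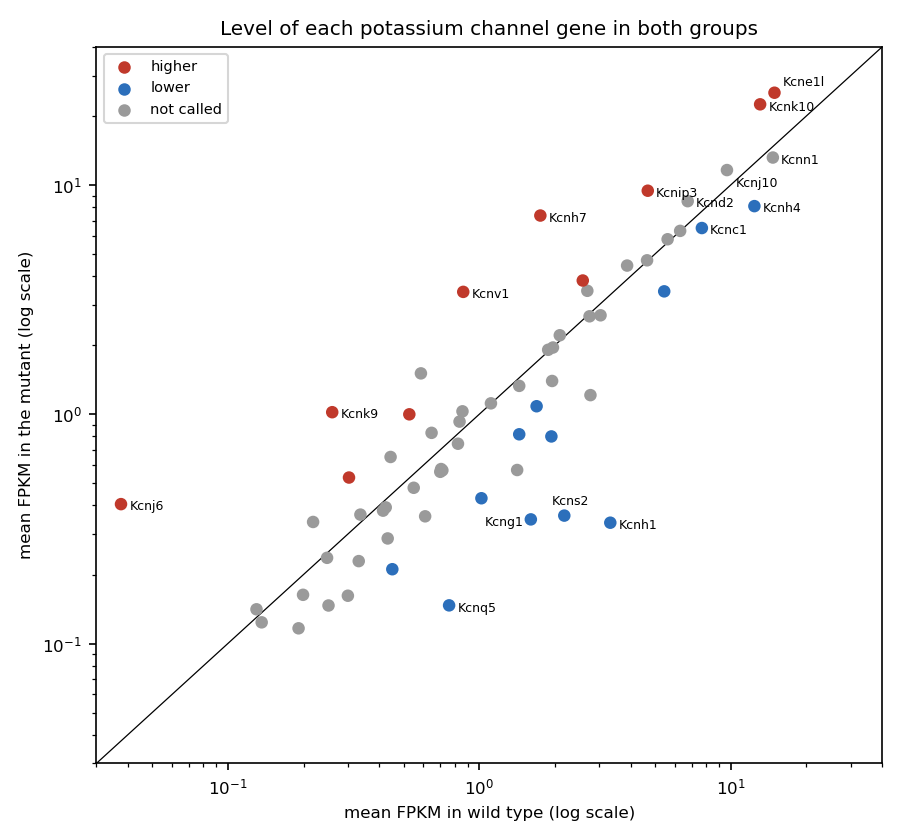
The mean FPKM of 64 of the 68 genes over the 3 mutant libraries (vertical, log scale) is plotted against its mean over the 3 wild type libraries (horizontal, log scale), with the line of equal levels. Kcnj6 has the lowest wild type mean, at 0.0376 FPKM, and Kcnh1, Kcns2, Kcng1 and Kcnq5 lie farthest below the line.

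Some members differed strongly between libraries of the wild type. Kcna2, Kcnd3 and Kcna6 are given here and were chosen after their values were seen. The highest wild type library was 6.14 times the lowest for Kcna2, 3.25 times for Kcnd3 and 2.54 times for Kcna6, and in the mutant the ratios were 1.25, 1.18 and 2.43. Kcna2, a low-threshold axonal channel, measured 3.25, 8.06 and 19.98 CPM in wild type and 29.3, 23.5 and 26.9 CPM in the mutant. Every mutant library was higher, but the log2 difference of 1.298 ± 0.756 did not pass the test (adjusted p = 0.0855), and without wild type replicate 3 it was 2.17 (adjusted p = 0.00345). Kcna6, of the same subfamily, measured 41.0, 16.9 and 16.2 CPM in wild type and 11.3, 5.25 and 12.8 CPM in the mutant, so wild type replicate 1 stood apart (log2 −1.31 ± 0.592, adjusted p = 0.0615, and −0.76 without that library). Its exons overlap those of the antisense gene Gm26673 over 39.6% of their length. Kcnd3, an A-type channel, measured 58.35, 17.9 and 24.6 CPM in wild type and 14.75, 15.4 and 13.1 CPM in the mutant. Wild type replicate 1 was again the highest, all mutant libraries were lower, and the difference was −1.20 ± 0.513 (adjusted p = 0.0602), −0.57 without wild type replicate 1 (adjusted p = 0.037) and −1.51 without wild type replicate 2 (adjusted p = 0.02). The library that stood apart was not the same for each gene, since Kcna6 and Kcnd3 were high in wild type replicate 1 and Kcna2 in replicate 3. The highest wild type library was at least 2.5 times the lowest for 4 of 36 members (11.1%) and 106 of 10542 tested genes (1.01%). Only genes with a mean of 10 CPM or more in either group were counted. In the mutant libraries the shares were 0.0% and 0.655%, and no test was made of them. Uneven genes outside the family included Map2, a neuronal cytoskeleton gene, at 1156, 474.8 and 469.8 CPM in wild type. Six3, a striatal lineage factor, was at 158.4, 116.7 and 39.9 CPM in the same libraries. What these have to do with the channel values was not tested.

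**Figure D4:**
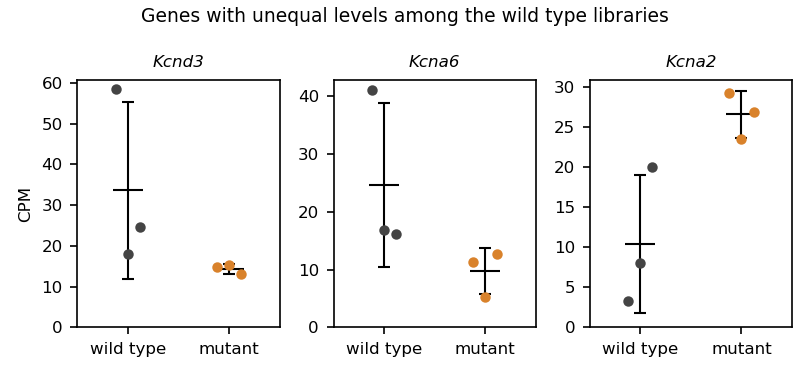
CPM (vertical axis, from 0) in the 3 wild type (grey) and 3 mutant (orange) libraries is plotted for Kcnd3, Kcna6 and Kcna2, 3 genes whose wild type libraries were unequal, with the mean and ± 1 SD. The wild type libraries of Kcnd3 span 17.9 to 58.35 CPM, while its mutant libraries span 13.1 to 15.4 CPM.

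Genes for proteins that place potassium channels, or work beside them, were called in both directions. Of 18 tested genes for proteins that anchor or cluster neuronal channels, 8 fell and 2 rose (55.6% called, beside 24.0% of all genes), with a median log2 fold change of −0.30 beside 0.00 for all genes. Cntnap2, which holds Kcna channels beside the node of Ranvier, fell from 114.1 ± 7.48 to 33.1 ± 0.753 CPM (adjusted p = 1.85e-06). Dlg2, a scaffold of Kcna channels, fell from 71.6 ± 10.2 to 24.8 ± 3.37 CPM, Epb41l3 from 68.9 ± 4.40 to 30.2 ± 3.59 CPM, and Lgi2 from 11.4 ± 0.375 to 2.17 ± 0.723 CPM. Of 13 tested genes for auxiliary or partner proteins outside the Kcn names, 2 rose and 2 fell, which is 30.8% and near the share of all genes. Dpp6, a partner of Kcnd channels, fell from 84.6 ± 6.95 to 58.9 ± 3.07 CPM (adjusted p = 0.00203), and Abcc8, which joins Kcnj11, rose from 5.28 ± 0.767 to 8.72 ± 1.16 CPM (adjusted p = 0.0152), a call that was lost without mutant replicate 1 (0.056). Kcnj11 itself was 2.47 ± 0.580 and 2.57 ± 0.271 CPM and was not called. Of the HCN cation channels, Hcn2 fell from 11.4 ± 2.58 to 7.07 ± 0.793 CPM (adjusted p = 0.0243). Leaving out any library except wild type replicate 1 ended that call, with adjusted p of 0.0594 without wild type replicate 2, 0.0686 without 3, and 0.063, 0.05 (above the threshold before rounding) and 0.0828 without mutant replicate 1, 2 or 3. Hcn3 and Hcn4 were not called. Of 11 sodium pump and potassium-chloride transport genes, 4 rose and 2 fell (54.5% called), among them the pump subunits Atp1b2 (61.6 ± 3.41 to 97.9 ± 5.56 CPM) and Atp1b1 (103.5 ± 9.52 to 67.5 ± 2.79 CPM), which moved in opposite directions.

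Other cells that the tissue can hold express some of these channels. Markers of oligodendrocyte precursors summed to 85.8 to 125.3 CPM in wild type and 135.5 to 151.5 CPM in the mutant (2 of 6 higher, none lower), those of microglia to 51.2 to 62.4 and 64.1 to 77.2 CPM (none of 8 called), and those of choroid plexus to 7.3 to 9.9 and 29.7 to 36.3 CPM (2 of 3 tested higher, 1 lower). Most of the choroid plexus sum was Otx2, at 6.51 ± 1.39 CPM in wild type and 31.2 ± 3.24 CPM in the mutant (SD, n = 3). Aqp1 rose from 0.462 to 1.16 CPM, and Clic6 fell from 1.025 to 0.0623 CPM. Ttr, the defining transcript of choroid plexus, had 6 reads over the wild type and 5 over the mutant libraries, and the choroid plexus channel gene Kcnj13 had 2 reads in each group. The part of these marker shifts in the channel values was not tested.

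The promoter windows of the members were searched for TAATTA, the core that homeodomain proteins such as Dlx1 and Dlx2 bind. TAATTA is its own reverse complement, so 1 search covers both strands. Windows reached from 250 bases before to 50 bases after the start in RefSeq GRCm38.p6, and 47 of the 68 members had at least 1. No member window held the motif, which was 0 of 12 windows of higher, 0 of 15 of lower and 0 of 39 of uncalled members, beside 1738 of 32851 windows of all genes (5.29%). The windows belonged to 7 of the 10 higher and 9 of the 14 lower members, and Kcns2, Kcng1, Kcnv1 and Kcnk9 had none. The windows do not cover distant enhancers. The 250 bases upstream held a median of 8 CG pairs in the windows of higher members, 6 in those of lower members and 10 in those of uncalled members, beside 6 over all windows.

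The read sum of 60 bears on the rarest members. Just inside it were Kcnh6 with 62 reads, Kcnj14 with 65 and Kcnk9 with 72. Just outside were Kcng2 with 57 reads (33 in wild type and 24 in the mutant), Kcna1 with 49 (13 and 36), and Kcns3 and Kcnd3os with 45 each. Kcna1, an axonal relative of Kcna2, still entered the fit over all genes, where its log2 difference was 1.28 (adjusted p = 0.0655). Kcnj6 and Kcnk9 reached the sum mainly through mutant reads, and the shares of higher members given above include both. Without them 8 of 66 members were higher and 14 lower, beside 11.2% and 12.8% of all genes. The only other members called at least 2-fold higher were Kcnh7 and Kcnv1, beside 2.84% of all genes. Among the genes under the sum, Kcnj4, a striatal inward rectifier, had 17 reads in wild type and 2 in the mutant and was not tested.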

How the data were processed

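RNA was measured by sequencing in 3 wild type and 3 Dlx1/2 mutant LGE samples. Per the submitters' processing notes, HISAT2 2.0.4, StringTie 1.3.0 and edgeR were used with GRCm38.p4 and mm10, without roles; the counting tool, gene annotation and strandedness were not given in the sources used here. Whole-number read counts per gene, FPKM values and, per the file headers, a p-value per gene were deposited by the authors, with no description of the test. Among genes above 50 counts in all 6 libraries, the deposited FPKM multiplied by the library total and divided by the count gave the same per-gene constant for 11418 of 11418, within 0.0001. Spreadsheet software had turned 25 symbols into dates, which were restored through gene IDs; 21146 IDs were found in GENCODE M21.

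The counts of all genes were tested with edgeR 4.0.16 in R 4.3.3 (filterByExpr by group, TMM scaling, glmQLFit, glmQLFTest, two-sided, Benjamini-Hochberg over 15326 genes, threshold 0.05). The common biological coefficient of variation was 0.122. Totals of 10711630 to 16588359 counts make a floor of 3 counts 0.181 to 0.287 CPM, and intervals from counts cover counting error only. CPM used TMM-scaled totals, and SE came from log2 CPM with 0.5 counts added. Pairs of libraries of 1 group differed by more than sampling noise (chi-square over its degrees of freedom 7.15 to 14.3). Alternatives were DESeq2 1.42.0, relative log expression (RLE) scaling, no filter on low counts, a replicate block, and leaving out each library. All 24 called members also had a p-value below 0.05 in the authors' deposited table.

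Members and gene lists were chosen with earlier results of these data known, so no list is independent evidence. Given in full were up to 14 rises and 14 falls among called members whose groups did not overlap, and the member with the highest level per length of each subfamily of 3 or more; of each list, up to 4 genes with the smallest adjusted p. Proteins were not analysed here. A few genes are included in the counts and class totals but are not reported here by name.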

Additional observations from a re-analysis of the deposited data

How the results depend on the processing

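The count of higher members was 10, and 9 with a replicate block, 10 with RLE scaling, 9 without the filter on low counts, 9 with DESeq2 and 8 to 10 when each library was left out. The count of lower members was 14, and 11, 14, 14, 13 and 10 to 14 in the same order. Of 24 called members, 17 kept the call and direction under all of these alternatives, and no called member changed sign. The block ended the calls of, among others, Kcnip4 (adjusted p = 0.118), Kcnt1 (0.0525) and Kcnc1 (0.0640) and added a call for Kcna6 (0.0354); among partner genes it also ended those of Abcc8 (0.0541), Abcc9 (0.0859) and Hcn2 (0.0661). Same-numbered libraries correlated at −0.295, 0.098 and −0.292, so the numbers were not taken to pair them. The cause of the lost calls was not tested.

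Of 44 uncalled members, 16 with small differences changed sign when 1 library was left out. The log2 differences of 15 of these then ran from −0.058 to 0.074 for Kcna3, −0.101 to 0.045 for Kcnab2 (0.005 with the replicate block), −0.18 to 0.64 for Kcnc4, −0.137 to 0.089 for Kcnd1, −0.27 to 0.001 for Kcnf1, −0.28 to 0.054 for Kcnh3, −0.20 to 0.68 for Kcnh6, −0.15 to 0.004 for Kcnh8, −0.078 to 0.27 for Kcnj11, −0.44 to 0.22 for Kcnk1, −0.079 to 0.047 for Kcnk2, −0.041 to 0.29 for Kcnk5, −0.44 to 0.27 for Kcnk6, −0.095 to 0.063 for Kcnn3 and −0.278 to 0.096 for Kcnt2. Depth limits the members under about 1 CPM, whose values rest on few reads a group.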
